A study of Mus musculus with 13 samples.

Results

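The genes of the E2F and DP transcription factor families of the mouse, E2f1 to E2f8, Tfdp1 and Tfdp2, were followed through 13 mRNA sequencing libraries. They were chosen by symbol, and all 10 are among the 24328 genes listed for each library. Earlier results of these data were known when they and the gene lists used below were chosen. Mature AML cells (mAML) and leukemia stem cells (LSC) of a murine MLL-AF10 leukemia had 1 library each, as did wild-type granulocyte-monocyte progenitors (GMP). LSC of the same leukemia were also profiled after 0, 8, 24, 48 and 72 h of A-485, with 2 libraries at each time. A-485 is a small molecule that blocks the catalytic acetyltransferase domain of the coactivators p300 and CBP. The 0 h libraries are labelled untreated, no vehicle library accompanies the later times, and the dose is not given in the sources used here. All groups are labelled as bone marrow, and the leukemia cells were kept in serum-containing medium with WEHI-conditioned medium. The sources do not say whether the libraries of a time came from separate cultures, so the p-values measure only the spread between these libraries, which may be technical.

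E2F proteins bind promoters of genes for DNA replication and cell division, most of them as dimers with a DP protein, and they are held in check by the retinoblastoma family of pocket proteins. E2F1, E2F2 and E2F3 are known as activators, E2F4 and E2F5 as repressors that work with pocket proteins, E2F6 as a repressor that works with Polycomb proteins instead, and E2F7 and E2F8 as atypical repressors that bind DNA without a DP partner. TFDP1 and TFDP2 are the DP partners. In blood-forming cells the family is known for coupling cell cycle exit to differentiation.

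The mAML library held 47257642 counts, that of LSC 40468515 and that of GMP 24532508, and those of the time course held 6467764 to 9763276, where all 10 genes were among the 11119 tested. The 6 myeloid progenitor markers (Mpo, Elane, Prtn3, Ctsg, Ms4a3 and Kit) all reached at least 1 TPM in GMP and LSC and 5 of them did in mAML. Their summed level was 40.1 to 69.6 TPM in the 72 h libraries, against 9402 to 9825 TPM in the 0 h libraries, so the markers of the labelled cell type were themselves far lower after A-485. Neutrophil markers summed to 1.49 to 11.4 TPM at 72 h, against 1340 to 6356 TPM at 0 h. Mast cell, basophil and eosinophil markers summed to 49.3 to 75.1 TPM at 72 h, against 461 to 647 TPM at 0 h. Gata2 made up most of that 72 h sum, with 68.6 and 34.2 TPM, against 44.5 and 51.8 TPM at 0 h, while the others of that list were all lower. Megakaryocyte markers summed to 14.0 to 34.6 TPM at 72 h, against 169 to 189 TPM at 0 h. Itga2b made up most of that sum, with 32.9 and 12.4 TPM at 72 h and 147 and 121 TPM at 0 h. The monocyte and macrophage sum was 546 to 566 TPM at 0 h and 160 to 312 TPM at 8 h. It was 488 to 934 TPM at 24 h, 804 to 941 TPM at 48 h and 513 to 614 TPM at 72 h. Its members did not move alike. Cd68 stood at 74.83 and 72.84 TPM at 72 h, against 36.45 and 37.38 TPM at 0 h. Csf1r stood at 0.85 and 0.59 TPM at 72 h, against 1.45 and 1.89 TPM at 0 h. Erythroid markers stayed under 4 TPM in sum at all times. The TMM factors, which correct for a few abundant transcripts taking up reads, were 0.830 and 0.832 in the 0 h libraries and lay between 1.03 and 1.07 in all treated libraries. The mean transcript length behind a read was longer in the 72 h libraries (3786 and 3670 nt) than in the 0 h libraries (3128 and 3115 nt). The part of these shifts in the results below was not tested, beyond the other scalings and the correction for transcript length, which are given where they changed a call or a direction. In bulk RNA, fewer cells of a type and less RNA per cell cannot be told apart.

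The promoters of E2f2, E2f7, E2f8 and E2f3 are shown because the first 3 of these genes changed most under A-485, while E2f3 was not called at any time with TMM scaling. Each stretch holds 250 bases before and 50 after an annotated start, from RefSeq on GRCm38.p6, read 5′ to 3′ on the gene's strand. The table held 12 such stretches for 8 of the 10 genes, and E2f4 and E2f5 were not among them. Capitals mark the E2F words TTTCCCGC, TTTGGCGC, TTTCGCGC and TTTGCCGC and the cell cycle homology word TTTGAA, each searched on both strands.
E2f2, chr4:136172024-136172323, plus strand: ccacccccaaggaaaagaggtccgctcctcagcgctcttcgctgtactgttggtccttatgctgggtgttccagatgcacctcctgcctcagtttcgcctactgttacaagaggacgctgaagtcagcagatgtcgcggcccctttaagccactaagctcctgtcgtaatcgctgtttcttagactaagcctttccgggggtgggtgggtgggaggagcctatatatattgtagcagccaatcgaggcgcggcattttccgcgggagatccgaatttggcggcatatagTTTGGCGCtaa
E2f7, chr10:110745189-110745488, plus strand: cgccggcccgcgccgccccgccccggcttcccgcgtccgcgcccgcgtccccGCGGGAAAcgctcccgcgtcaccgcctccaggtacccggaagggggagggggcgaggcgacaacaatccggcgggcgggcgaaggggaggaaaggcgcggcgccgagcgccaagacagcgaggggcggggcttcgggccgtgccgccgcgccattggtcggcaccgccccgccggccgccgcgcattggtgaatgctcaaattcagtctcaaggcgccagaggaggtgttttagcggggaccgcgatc
E2f8, chr7:48881547-48881846, minus strand: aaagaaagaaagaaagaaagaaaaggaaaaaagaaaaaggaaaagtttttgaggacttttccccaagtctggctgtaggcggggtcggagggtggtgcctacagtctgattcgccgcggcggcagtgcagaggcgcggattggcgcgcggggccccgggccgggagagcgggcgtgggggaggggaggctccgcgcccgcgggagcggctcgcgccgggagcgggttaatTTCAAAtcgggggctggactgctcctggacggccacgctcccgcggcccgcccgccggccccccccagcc
E2f3, chr13:29986014-29986313, minus strand: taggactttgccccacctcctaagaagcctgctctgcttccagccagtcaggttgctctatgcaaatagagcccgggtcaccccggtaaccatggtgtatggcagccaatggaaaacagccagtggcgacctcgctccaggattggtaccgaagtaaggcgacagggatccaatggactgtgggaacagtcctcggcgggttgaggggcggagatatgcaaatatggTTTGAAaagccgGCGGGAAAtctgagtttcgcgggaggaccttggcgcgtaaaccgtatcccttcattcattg
An E2F word was found in the stretches of E2f2, E2f7 and E2f3 shown here and in both overlapping stretches of Tfdp1. Any of the 4 E2F words occurs in 2.26% of all 32851 promoters of the table. The word TTTGAA was found in those of E2f8 and E2f3, in a second stretch of E2f2, and in 17.9% of all promoters. Neither word was in the listed stretches of E2f1, E2f6 and Tfdp2. Other starts of these genes were not searched, and whether the listed starts are the main ones was not tested. A missing word therefore holds for these stretches alone. Counted from the annotated start, the E2F word lay at positions 39 to 46 in E2f2, -198 to -191 in E2f7 and -11 to -4 in E2f3. The word TTTGAA lay at -20 to -15 in E2f8 and at -23 to -18 in E2f3. Of the genes lower at 72 h, E2f1 alone had neither word in its listed stretch. Of those not called, E2f3 had both words, E2f6 and Tfdp2 had neither and E2f4 had no stretch. A match is a description of the letters only.

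Under A-485 the family divided into genes that fell, 1 gene that rose and genes with no call. At 72 h against 0 h, E2f1, E2f2, E2f7, E2f8 and Tfdp1 were lower, E2f5 was higher, and E2f3, E2f4, E2f6 and Tfdp2 were not called. That is 5 lower and 1 higher of 10, beside 29.4% of all tested genes lower, 25.9% higher and 55.3% called in either direction by edgeR's quasi-likelihood test at an adjusted p under 0.05. The median log2 change of the 10 genes was -0.65 at 72 h, also with E2f7 set at its bound, and that of all tested genes was -0.02. At 8 h 1 gene was higher and 2 were lower, beside 17.9% and 21% of all genes and 38.9% in either direction. At 24 h 1 was higher and 5 lower, beside 23.2% and 27.1% of all genes and 50.3% in either direction. At 48 h none was higher and 6 were lower, beside 25.2% and 30.5% and 55.6% in either direction. Over all 4 treated times together, 7 of the 10 genes were called, beside 59.8% of all genes, and the 3 without a call were E2f3, E2f4 and E2f6. Libraries did not overlap between treated times and 0 h for 7 of the 10 genes at 8 h, all 10 at 24 and 48 h and 9 at 72 h. Among all genes that share was 73.2% at 8 h, 76.8% at 24 h, 83.2% at 48 h and 80.9% at 72 h. The number called was near the background in each comparison with 0 h, and the results that follow are on the size and direction of single genes.

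**Figure D1:**
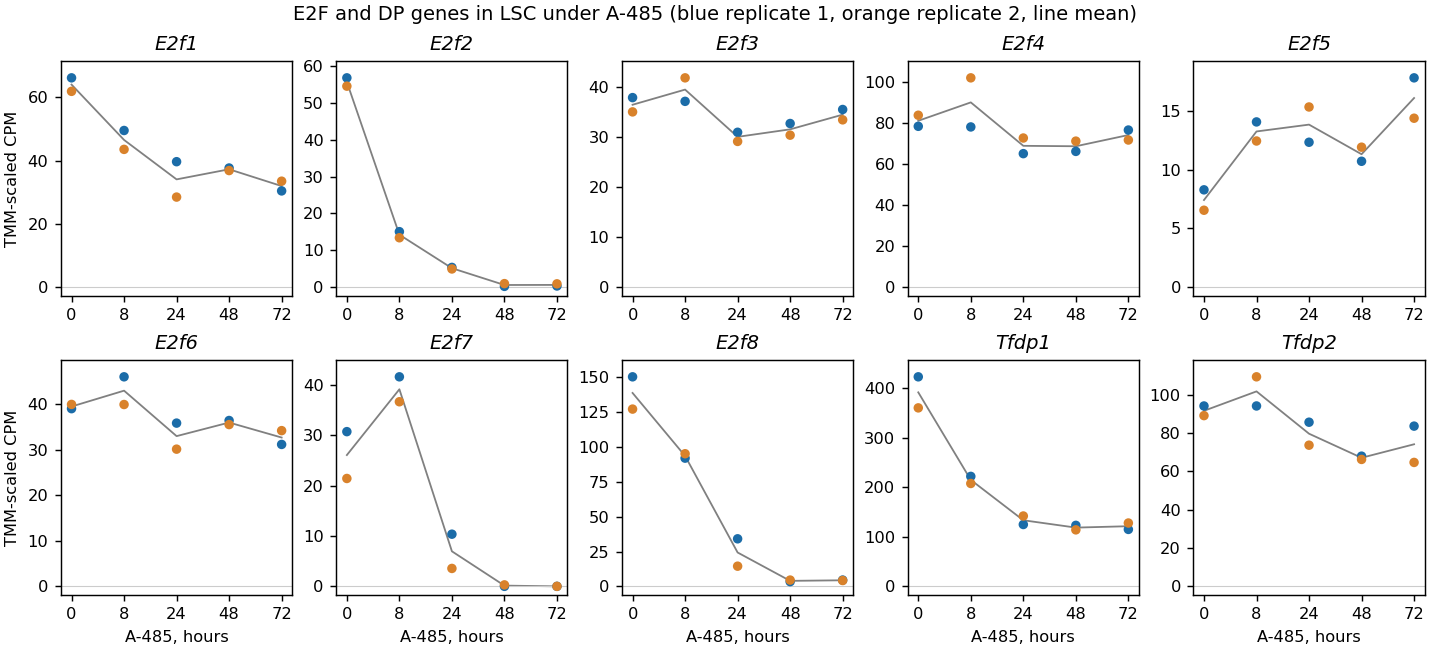
Levels of the 10 genes in LSC at 0, 8, 24, 48 and 72 h of A-485. Each panel is 1 gene on a linear axis of TMM-scaled CPM, points are the 2 libraries of a time (blue replicate 1, orange replicate 2), and the line joins their means. E2f2, E2f7 and E2f8 approach 0 by 48 h, Tfdp1 lies between 114 and 142 CPM from 24 h on, and E2f5 is higher at 72 h than at 0 h.

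Among the activators, E2f2 had the largest fall. It stood at 56.7 and 54.5 CPM (counts scaled to library size with TMM factors) at 0 h, at 15.1 and 13.4 CPM at 8 h, at 5.40 and 4.98 CPM at 24 h, at 0.271 and 1.02 CPM at 48 h, and at 0.376 and 0.957 CPM at 72 h. Each treated library was below both 0 h libraries, and the later levels rest on few reads, with 3 and 8 counts at 72 h. The mean was 25.6% of the 0 h mean at 8 h and 1.20% at 72 h. The log2 change was -1.96 ± 0.32 (SE) at 8 h, with an adjusted p of 0.00188, and -6.34 ± 0.43 at 72 h, with an adjusted p of 1.53e-05. From 8 h the gene fell further, by a log2 change of -4.38 ± 0.43 at 72 h against 8 h (adjusted p = 0.000209).

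E2f1, which both drives S-phase entry and can promote cell death, fell less. Its levels were 66.1 and 61.8 CPM at 0 h, 49.5 and 43.5 at 8 h, 39.6 and 28.5 at 24 h, 37.7 and 36.9 at 48 h, and 30.4 and 33.5 at 72 h. All 8 treated libraries lay below both 0 h libraries. The change missed the threshold at 8 h (log2 -0.46 ± 0.17, adjusted p = 0.0595) and passed it at 24 h (-0.91 ± 0.17, adjusted p = 0.00279), 48 h (-0.78 ± 0.17, adjusted p = 0.00475) and 72 h (-1.001 ± 0.17, adjusted p = 0.00138). The call depends on the scaling. In the deposited TPM, E2f1 stood at 23.4 and 24.6 TPM at 72 h, against 30 and 28.0 TPM at 0 h, and limma on log2(TPM + 1) gave -0.26 with an adjusted p of 0.193 there. The calls at 24 h and 48 h were lost on that scale too (adjusted p = 0.0825 and 0.677), and that at 48 h also with library size alone (0.0567). Without a call at 8 h in the full fit, the gene was called at 8 h when either 24 h library was left out, with an adjusted p of 0.0254 or 0.0259.

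With TMM scaling E2f3 was not called at any time. Its levels were 37.8 and 35.0 CPM at 0 h, 37.1 and 41.7 at 8 h, 30.9 and 29.1 at 24 h, 32.6 and 30.3 at 48 h, and 35.4 and 33.4 at 72 h. The 72 h and 0 h libraries overlapped, with a log2 difference of -0.08 ± 0.13 and an adjusted p of 0.63. With library size alone that difference was 0.28, and on log2(TPM + 1) it was 0.71 with an adjusted p of 0.0046, under scalings that moved the all-gene median by 0.37 and 0.69. E2f3 was also called higher at 48 h on log2(TPM + 1) (0.52, adjusted p = 0.021), and at 8 h both with library size alone (0.43, adjusted p = 0.0254) and on log2(TPM + 1) (0.52, adjusted p = 0.0268). With the length correction it was called lower instead, at 24 h (-0.47, adjusted p = 0.0142) and 48 h (-0.46, adjusted p = 0.0137).

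The length that RSEM assigned to E2f3 did move. It is the mean of the 2 transcripts listed for the gene, weighted by their estimated abundance, and stood at 5097 nt in both 0 h libraries. It was 5047 and 5097 nt after 8 h, 4729 and 4744 nt after 24 h, 4633 and 4866 nt after 48 h, and 4622 and 4668 nt after 72 h. All 6 libraries from 24 h on lay below all 4 earlier ones, while the total level of the gene was not called. The single libraries gave 4813 nt in mAML, 4938 nt in LSC and 4982 nt in GMP. The estimate rests on how reads were divided between transcripts, and its error was not analysed here.

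**Figure D2:**
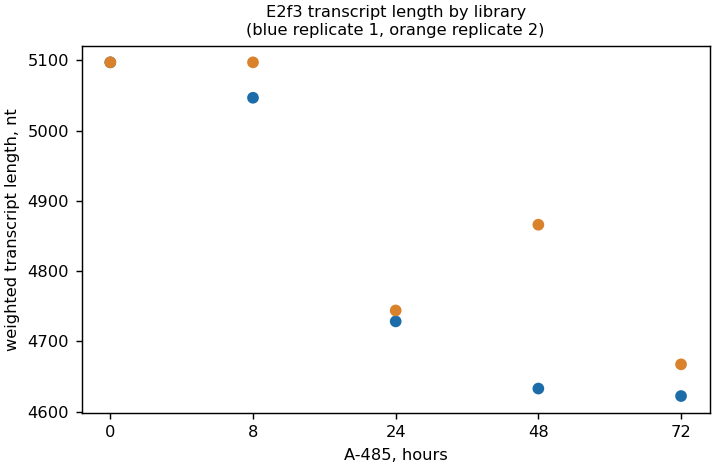
Abundance-weighted transcript length of E2f3, in nucleotides on an axis that does not start at 0, by hours of A-485. Points are single libraries (blue replicate 1, orange replicate 2), and both 0 h libraries lie at 5097 nt with their points on top of each other. The 72 h libraries lie at 4622 and 4668 nt.

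Of the repressors that work with pocket proteins, E2f4 was the most abundant E2f gene per transcript length in every time course library. Its levels were 78.5 and 83.8 CPM at 0 h, 78.1 and 102 at 8 h, 65.1 and 72.7 at 24 h, 66.2 and 71.2 at 48 h, and 76.6 and 71.8 at 72 h. No time was called with TMM scaling, and the 72 h difference was -0.13 ± 0.14 on the log2 scale (adjusted p = 0.471). Its direction depended on the scaling, with 0.24 under library size alone and 0.57 on log2(TPM + 1) at 72 h. On log2(TPM + 1) it was called higher at 8 h (adjusted p = 0.0108), 48 h (0.0293) and 72 h (0.00792), and with library size alone at 8 h (0.0244).

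With TMM scaling, E2f5 was the only one of the 10 genes called higher at any time. It stood at 8.28 and 6.55 CPM at 0 h, at 14.0 and 12.4 CPM at 8 h, at 12.3 and 15.3 CPM at 24 h, at 10.7 and 11.9 CPM at 48 h, and at 17.8 and 14.4 CPM at 72 h. Every treated library was above both 0 h libraries. At 72 h the log2 change was 1.11 ± 0.24 with an adjusted p of 0.00459, and this call held in each of the 17 other fits tried. The changes at 8 h (0.83 ± 0.24, adjusted p = 0.0251) and 24 h (0.89 ± 0.24, adjusted p = 0.0145) passed and that at 48 h (0.60 ± 0.24, adjusted p = 0.0623) did not, though it did with the length correction (0.83, adjusted p = 0.0171), with library size alone (adjusted p = 0.00891) and on log2(TPM + 1) (0.000858). The 8 h call was lost without the second 0 h library (adjusted p = 0.12), without either 8 h library (0.0853 and 0.0598) or with only the 2 times in the fit (0.0654). The 24 h call was lost without the second 0 h library (adjusted p = 0.0789), without the second 24 h library (0.0748) or with only the 2 times in the fit (0.0517).

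E2f6, the repressor that works within the Polycomb complex PRC1.6, was not called at any time with TMM scaling. It stood at 39.0 and 40.0 CPM at 0 h, at 46.0 and 40.0 CPM at 8 h, at 35.9 and 30.1 CPM at 24 h, at 36.4 and 35.5 CPM at 48 h, and at 31.2 and 34.2 CPM at 72 h. The 72 h libraries lay below both 0 h libraries, with a log2 difference of -0.27 ± 0.14 (adjusted p = 0.139). Library size alone gave 0.093 there and log2(TPM + 1) gave 0.42. On log2(TPM + 1) it was called higher at 8 h (adjusted p = 0.0104), 48 h (0.00826) and 72 h (0.0233), and with library size alone at 8 h (0.0338).

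The atypical repressors were nearly lost. E2f8 stood at 150 and 127 CPM at 0 h, at 92.1 and 95.2 CPM at 8 h, at 34.1 and 14.5 CPM at 24 h, at 3.39 and 4.50 CPM at 48 h, and at 4.51 and 4.19 CPM at 72 h. Each treated library was below both 0 h libraries. The 8 h change missed the threshold (log2 -0.57 ± 0.31, adjusted p = 0.172), and passed it when either 24 h library was left out (adjusted p = 0.0143 each) or when only the 2 times were in the fit (0.0239). The change was -2.51 ± 0.33 at 24 h (adjusted p = 0.000473), -5.14 ± 0.40 at 48 h (adjusted p = 2.43e-05) and -4.99 ± 0.39 at 72 h (adjusted p = 2.56e-05). The 72 h mean was 3.13% of the 0 h mean.

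E2f7 took a different course at 8 h. It stood at 30.8 and 21.4 CPM at 0 h, at 41.7 and 36.7 CPM at 8 h, at 10.4 and 3.56 CPM at 24 h, at 0 and 0.290 CPM at 48 h, and had no counts in either 72 h library. Both 8 h libraries were above both 0 h libraries, but the difference missed the threshold (log2 0.58 ± 0.47, adjusted p = 0.356), and passed it on log2(TPM + 1) (0.93, adjusted p = 0.0397). At 24 h the gene had fallen (log2 -1.90 ± 0.50, adjusted p = 0.0157), a call that was lost without the first 0 h library (adjusted p = 0.0981). At 48 h, 2 counts stood against 403 at 0 h, a ratio of 188 with a 95% exact counting interval of 51.8 to 1560 (adjusted p = 0.000244). With 0 counts at 72 h the gene was at least 144-fold lower there than at 0 h, taking a floor of 3 counts over both libraries (adjusted p = 0.000174). Intervals and floors cover counting error only.

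Whether E2f2, E2f7 and E2f8 differed in timing was not tested gene against gene. E2f2 had 25.6% of its 0 h mean left at 8 h, while E2f8 had 67.4% and E2f7 had 150%. At 72 h against 8 h, 6 of the 10 genes fell and none rose, beside 17.2% of all genes lower, 15.1% higher and 32.2% called in either direction. The libraries of these times did not overlap for any of the 10 genes, nor for 65.9% of all genes. Those that fell were E2f1 (log2 -0.54 ± 0.17, adjusted p = 0.041), E2f2, E2f7 (adjusted p = 0.000335), E2f8 (-4.42 ± 0.38, adjusted p = 0.000121), Tfdp1 (-0.82 ± 0.12, adjusted p = 0.00135) and Tfdp2 (-0.46 ± 0.15, adjusted p = 0.0455). The calls of E2f1 and Tfdp2 in that comparison were lost in 8 and 6 of the 10 fits that left out a library. Both were also lost with library size alone (adjusted p = 0.0579 for E2f1 and 0.0646 for Tfdp2), with only the 2 times in the fit (0.0655 and 0.114) and on log2(TPM + 1) (0.26 and 0.473).

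Of the DP partners, Tfdp1 fell early, most of it by 24 h. It stood at 424 and 361 CPM at 0 h, at 222 and 208 CPM at 8 h, at 125 and 142 CPM at 24 h, at 123 and 114 CPM at 48 h, and at 115 and 128 CPM at 72 h. Every treated library was below both 0 h libraries, and the 6 libraries from 24 h on lay between 114 and 142 CPM. The log2 change was -0.87 ± 0.12 at 8 h (adjusted p = 0.000869), -1.55 ± 0.12 at 24 h (adjusted p = 4.52e-05), -1.72 ± 0.12 at 48 h (adjusted p = 1.61e-05) and -1.69 ± 0.12 at 72 h (adjusted p = 1.75e-05).

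Tfdp2 stood at 94.0 and 89.0 CPM at 0 h, at 94.0 and 109 CPM at 8 h, at 85.6 and 73.6 CPM at 24 h, at 67.9 and 66.2 CPM at 48 h, and at 83.5 and 64.6 CPM at 72 h. The 24, 48 and 72 h libraries all lay below both 0 h libraries. It was called at 48 h (log2 -0.45 ± 0.15, adjusted p = 0.0315), though not when any of the 4 libraries of 0 and 48 h was left out (adjusted p from 0.107 to 0.185) nor with library size alone (-0.098, adjusted p = 0.591), and it was 0.19 on log2(TPM + 1). At 72 h the difference was -0.31 ± 0.15 (adjusted p = 0.113). It was -0.50 and called without the first 72 h library (adjusted p = 0.0395), and with library size alone it was 0.060. With the length correction Tfdp2 was called lower at 24 h (-0.49, adjusted p = 0.0101) and 72 h (-0.65, adjusted p = 0.00218), and at 8 h it was called higher with library size alone (0.46, adjusted p = 0.0277) and on log2(TPM + 1) (0.55, adjusted p = 0.0312).

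Per transcript length, in TPM, the order of the family changed with these falls. At 0 h the means were 192 for Tfdp1, 52.4 for E2f4, 45.2 for E2f8, 29.0 for E2f1, 20.1 for E2f6, 14.6 for Tfdp2, 13.9 for E2f2, 8.40 for E2f3, 5.60 for E2f7 and 5.58 for E2f5. The libraries of neighbours in that order did not overlap, except those of E2f7 and E2f5. At 72 h the means were 97.8 for Tfdp1, 78.5 for E2f4, 27.2 for E2f6, 24.0 for E2f1, 19.8 for E2f5, 19.5 for Tfdp2, 14.4 for E2f3, 2.33 for E2f8 and 0.310 for E2f2, with E2f7 listed at 0. There the libraries of E2f5 overlapped those of Tfdp2 and the others did not overlap their neighbours.

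In the make-up of the E2f transcripts, the share of the atypical repressors was lower and that of the pocket-bound repressors higher after A-485. E2f7 and E2f8 together made up 1.43% and 1.37% of the summed E2f TPM in the 72 h libraries, against 30.03% and 26.3% in the 0 h libraries. E2f4 and E2f5 made up 60.8% and 57.1% at 72 h, against 30.7% and 33.7% at 0 h. The activators made up 22.4% and 24.2% at 72 h, against 28.5% and 28.4% at 0 h, and E2f6 15.3% and 17.3%, against 10.7% and 11.6%. For none of these 4 groups did the 72 h and 0 h libraries overlap. Tfdp1 made up 81.0% and 85.8% of the DP TPM at 72 h, against 93.3% and 92.5% at 0 h. Shares of a sum are tied to each other, and with 2 libraries against 2 an exact permutation test cannot reach 0.05, so none is given.

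**Figure D3:**
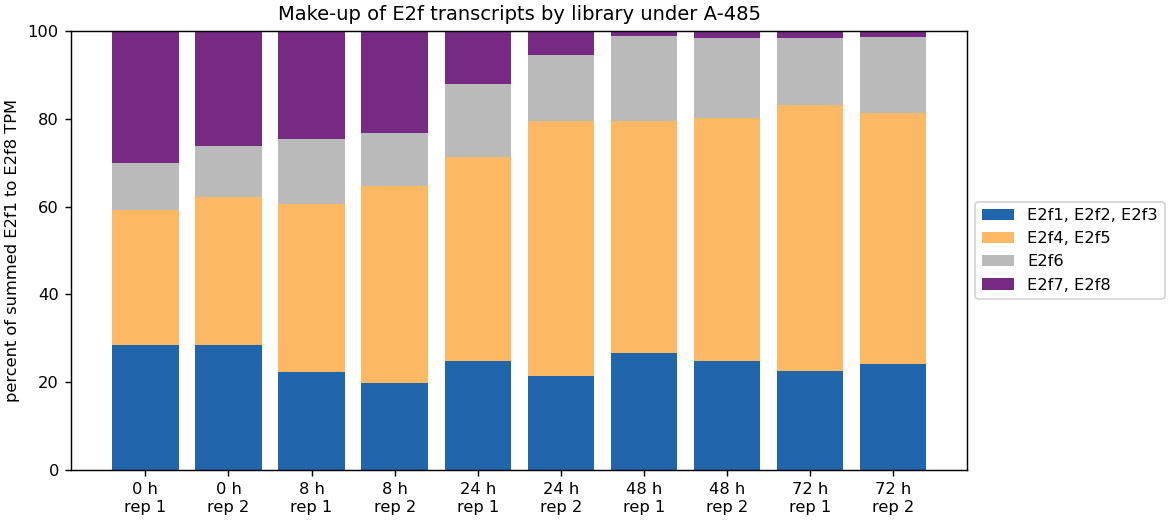
Share of each E2f class in the summed TPM of E2f1 to E2f8, 1 bar per library in order of hours under A-485, stacked to 100%. The purple share of E2f7 and E2f8 is 30.03% and 26.3% at 0 h and 1.43% and 1.37% at 72 h, and the orange share of E2f4 and E2f5 is 60.8% and 57.1% at 72 h.

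The genes that E2F proteins are known to switch on for DNA synthesis fell almost as a whole by 24 h. Of 61 tested genes of this list, 12 were lower and none higher at 8 h, beside 21% and 17.9% of all genes. At 24, 48 and 72 h, 60 were lower and none higher, with Casp8ap2 uncalled at 72 h (log2 -0.09, adjusted p = 0.706). Among all genes 27.1% were lower at 24 h, 30.5% at 48 h and 29.4% at 72 h. The median log2 change of the list was -0.24 at 8 h, -2.04 at 24 h, -3.07 at 48 h and -2.88 at 72 h. The early count and direction depended on the fit. It was 4 lower without the first 0 h or the second 8 h library, 6 without the second 0 h library and 7 without the first 8 h library, and with library size alone 6 were lower and 8 higher and with limma on log2(TPM + 1) 5 were lower and 11 higher at 8 h.

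At 8 h the list's smallest p-values belonged to Mcm6 and Mcm7, subunits of the replicative helicase, and Ung, the uracil DNA glycosylase. Mcm6 averaged 297 ± 49.1 CPM at 8 h and 681 ± 37.2 CPM at 0 h (SD, n = 2 each), with a log2 change of -1.20 ± 0.15 (SE, adjusted p = 0.000552). Ung averaged 9.11 ± 3.23 CPM at 8 h and 35.4 ± 1.45 CPM at 0 h, and Mcm7 197 ± 1.499 CPM at 8 h and 396 ± 10.2 CPM at 0 h (adjusted p = 0.00204 each). At 72 h they belonged to Cdc45, Mcm3 and Rrm2, which serve the helicase and nucleotide supply. Rrm2, the small subunit of ribonucleotide reductase, averaged 1.11 ± 0.38 CPM at 72 h and 90.5 ± 6.79 CPM at 0 h, so that its log2 change was -6.34 ± 0.33 (adjusted p = 6.13e-06). Cdc45 changed by -4.46 ± 0.18 and Mcm3 by -3.58 ± 0.18.

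The mitotic genes were not called at 8 h and were lower at later times. Of 29 tested genes none was called at 8 h by edgeR, though 5 were higher at an unadjusted p under 0.05, DESeq2 called 4 higher, limma on log2(TPM + 1) called 10 higher and library size alone 9. With only the 2 times in the fit 13 were higher, with no filter on low counts 6, without either 24 h library 7 and without the first 8 h library 2. Their median log2 change was 0.51 at 8 h, beside 0.01 for all genes, of which 17.9% were called higher and 21% lower by edgeR. At 24 h 22 were lower, a count that was 14 without the second 0 h library, and at 48 and 72 h all 29 were. Of all genes 27.1% were lower at 24 h, 30.5% at 48 h and 29.4% at 72 h. The median of the mitotic genes was -1.48 at 24 h, -5.01 at 48 h and -5.60 at 72 h. Top2a, the topoisomerase that untangles chromosomes, averaged 25.5 ± 1.26 CPM at 72 h and 658 ± 62.5 CPM at 0 h (log2 -4.69 ± 0.34, adjusted p = 1.89e-05). Aurkb and Cdca8, parts of the chromosomal passenger complex, changed by -7.60 ± 0.52 and -4.98 ± 0.35.

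**Figure D4:**
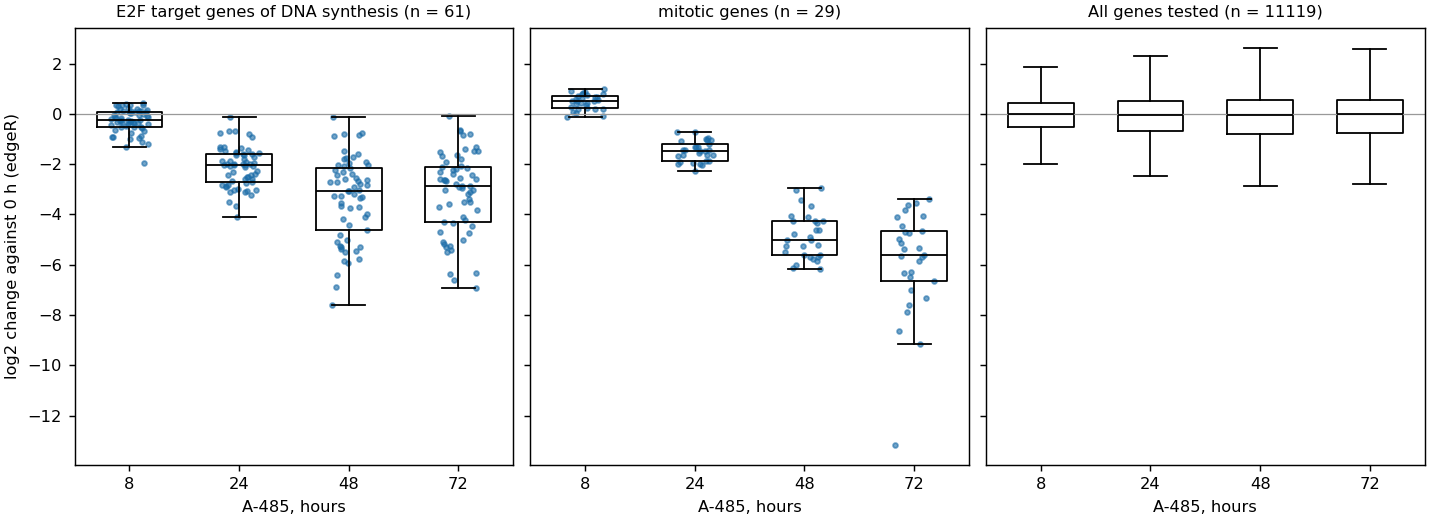
Log2 change against 0 h after 8, 24, 48 and 72 h of A-485 (edgeR) for E2F target genes of DNA synthesis, mitotic genes and all genes tested. Points are genes, boxes show the median and quartiles, and whiskers reach the farthest value within 1.5 box heights. Medians of the first list are -0.24, -2.04, -3.07 and -2.88, and those of the mitotic genes 0.51, -1.48, -5.01 and -5.60. The lowest mitotic point at 72 h is Ccnb2, which had no counts there, so its fitted value is no measure of size.

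The partners and regulators of the family did not move as 1 block. Of the 10 genes for pocket proteins and the MuvB complex, 3 were higher and 1 lower at 8 h, beside 17.9% and 21% of all genes, and 2 were higher and 6 lower at 72 h, beside 25.9% and 29.4%. The count of 3 rested on single libraries and on the scaling. None was higher without the second 8 h library, 1 without either 0 h library, 6 with library size alone and 7 on log2(TPM + 1). The 6 lower at 72 h became 4 with library size alone or without any 1 of the 0 h and 72 h libraries and 3 on log2(TPM + 1). Rbl1, the pocket protein p107, was higher at 8 h (140 ± 20.6 CPM at 8 h and 94.6 ± 10.1 CPM at 0 h, log2 0.57 ± 0.13, adjusted p = 0.0104) and lower at 72 h (53.7 ± 0.257 CPM, log2 -0.82 ± 0.14, adjusted p = 0.00117). Its 8 h call was lost without the second 0 h library (adjusted p = 0.067) or the second 8 h library (0.0744), and its 72 h call on log2(TPM + 1) (-0.10, adjusted p = 0.579). Mybl2, the transcription factor B-MYB that joins MuvB on mitotic genes, fell by a log2 change of -1.70 ± 0.26 at 8 h (adjusted p = 0.0016) and -6.31 ± 0.36 at 72 h (adjusted p = 8.55e-06). Foxm1, which acts beside it, fell by -3.50 ± 0.35 at 72 h, and Lin52, a MuvB subunit, rose by 0.66 ± 0.20 at 8 h (adjusted p = 0.0298). The call of Lin52 was lost in 6 of 17 other fits, among them DESeq2 (adjusted p = 0.0522) and each of the 4 that left out a 0 h or 8 h library (0.0544 to 0.133). The list's median at 72 h was -0.44, and on log2(TPM + 1) it was 0.25.

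Of 16 tested cyclins, cyclin-dependent kinases and inhibitors of G1, 4 were lower and none higher at 8 h, beside 21% and 17.9% of all genes, and 10 were lower and 1 higher at 72 h, beside 29.4% and 25.9%. The 8 h count was 2 lower without the second 0 h library, 6 without the first 24 h library and 7 by DESeq2. With library size alone 2 were lower and 2 higher there, and on log2(TPM + 1) 2 were lower and 3 higher. Cdk4, the kinase that starts pocket protein phosphorylation, averaged 227 ± 7.15 CPM at 8 h and 389 ± 2.03 CPM at 0 h (log2 -0.78 ± 0.09, adjusted p = 0.000329), and 96.9 ± 3.70 CPM at 72 h (log2 -2.01 ± 0.09, adjusted p = 3.73e-06). Ccnd3, its cyclin D3 partner, was lower at 8 h (-1.04 ± 0.18, adjusted p = 0.00274), as was Cdk7, the kinase that activates other CDKs (-0.55 ± 0.14, adjusted p = 0.0135). The call of Cdk7 was lost without the second 0 h library (adjusted p = 0.0947), without the first 8 h library (0.0635), with library size alone (0.175) and on log2(TPM + 1) (0.662). Ccna2 and Ccne2, cyclins of S-phase entry and themselves known E2F targets, changed by -7.17 ± 0.64 and -2.91 ± 0.32 at 72 h. The 1 gene higher at 72 h was Cdkn1b, named after its value was seen, which encodes the inhibitor p27 (220 ± 32.5 CPM at 72 h and 84.7 ± 8.28 CPM at 0 h, log2 1.38 ± 0.17, adjusted p = 0.000222).

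Of 8 genes for ubiquitin ligase parts that act on E2F proteins, 1 was higher and none lower at 8 h, beside 17.9% and 21% of all genes, and 1 was higher and 6 lower at 72 h, beside 25.9% and 29.4%. The 1 higher at 72 h was Cul1, the cullin scaffold of the SKP2 and cyclin F ligases, named after its value was seen (log2 0.51 ± 0.17, adjusted p = 0.0288). That call was lost without either 0 h library or the first 72 h library. At 8 h 2 were higher with library size alone or without the first 8 h library, and 3 on log2(TPM + 1) or with only the 2 times in the fit. Fzr1, the CDH1 coactivator of the anaphase-promoting complex, was higher at 8 h (131 ± 7.58 CPM at 8 h and 89.3 ± 4.05 CPM at 0 h, log2 0.56 ± 0.12, adjusted p = 0.00754). Ccnf, the cyclin F receptor that targets activator and atypical E2Fs, fell at 72 h (log2 -4.31 ± 0.46, adjusted p = 0.00011). So did Fbxo5, the inhibitor of the anaphase-promoting complex (-3.21 ± 0.28), and Cks1b, a cofactor of the SKP2 ligase (-4.87 ± 0.44). Of the 10 PRC1.6 partners of E2F6, 1 was higher and 2 lower at 8 h, and 3 were higher and 2 lower at 72 h. These counts lie close to the shares over all genes, which were 17.9% and 21% at 8 h and 25.9% and 29.4% at 72 h. None was higher at 8 h without the second 0 h or the second 8 h library, and 4 were with library size alone or on log2(TPM + 1), scalings under which 5 were higher at 72 h. Wdr5 was lower (log2 -1.55 ± 0.11 at 72 h, adjusted p = 1.73e-05), as was Cbx3 (-1.08 ± 0.10, adjusted p = 4.76e-05), and Ring1 was higher (0.77 ± 0.14, adjusted p = 0.00185). Of 10 germline genes that E2F6 is known to keep silent, none passed the filter on low counts. Only Stag3, a meiotic cohesin subunit, reached 1 TPM in any library, with its highest level of 2.91 TPM in LSC.

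The genes whose levels ran most like each member over the 10 libraries were sought by Pearson's r of log2 CPM among 9026 genes. This r is a description, since all points share the same libraries, time course and depth. For E2f7 they were Top2a and Tpx2 (r = 0.998 each) and Ccnb1 (0.997), and for E2f8 H2afx, Uhrf1 and Cdca8 (0.994 each). For E2f2 they were the ribosomal protein genes Rps18 (0.994), Rpl35 (0.993) and Rpl10a (0.992). For Tfdp1 they were Timm23 (0.998), Ybx3 (0.994) and Sumo3 (0.990), and for E2f1 Sec11a (0.976), Gtf2e2 and Nav1 (0.973 each). The most alike gene was Angel1 for E2f5 (0.965), Psmc6 for E2f6 (0.968), Nucks1 for Tfdp2 (0.962), Rttn for E2f3 (0.957) and Srxn1 for E2f4 (0.941). Among the members, E2f7 and E2f8 had r = 0.976 and E2f2 and E2f8 had r = 0.968.

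The single libraries of mAML, LSC and GMP have no replicates and no test, and brackets hold 95% exact binomial intervals of the log2 ratio, which cover counting error only. E2f2 had the largest ratio of the family between mAML and LSC. It had 250 CPM and 78.1 TPM in mAML, against 21.3 CPM and 6.73 TPM in LSC, a log2 ratio of 3.55 [3.46, 3.66], and GMP had 18.8 CPM and 7.19 TPM. It was the 1 gene of the 10 at least 2-fold apart between mAML and LSC, with 1 higher and none lower. Over all genes that reached 1 CPM in either of the libraries compared, 24.9% were that far apart between mAML and LSC (16.3% higher, 8.58% lower). The next in size were Tfdp1, with 196 CPM in mAML against 360 CPM in LSC (-0.88 [-0.92, -0.84]), E2f3, with 15.8 CPM in mAML against 28.0 CPM in LSC (-0.82 [-0.97, -0.69]), and E2f8, with 134 CPM in mAML against 208 CPM in LSC (-0.63 [-0.68, -0.59]).

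Markers of several cell types, mature myeloid cells among them, were read beside the E2f2 level in mAML. E2f2 is known for its part in erythroid maturation, and the 10 erythroid markers summed to 19.0 TPM in mAML, 4.07 TPM in LSC and 8.52 TPM in GMP, with 3, 1 and 3 of them at 1 TPM or more, none at 0 in mAML and 4 at 0 in LSC. Alas2, the first enzyme of heme synthesis in red cells, made up 14.7 TPM of the sum in mAML, against 0.04 TPM in LSC and 1.31 TPM in GMP, and without it the sums were 4.36 TPM in mAML, 4.03 TPM in LSC and 7.21 TPM in GMP. Of the 10 erythroid markers 6 were higher in mAML than in LSC, and Klf1, the erythroid transcription factor, was at 0.40 TPM in mAML against 0.69 TPM in LSC. The 10 T and NK markers summed to 277 TPM in mAML, 156 TPM in LSC and 998 TPM in GMP, and all 10 of them reached 1 TPM in mAML, against 2 in LSC and 1 in GMP. Nkg7, a granule gene of cytotoxic cells, made up 43.3 TPM of the sum in mAML, 153 TPM in LSC and 996 TPM in GMP. The other 9 markers summed to 234 TPM in mAML, 2.36 TPM in LSC and 1.85 TPM in GMP, and each was higher in mAML than in LSC and in GMP. The 7 neutrophil markers summed to 88586 TPM in mAML, 21962 TPM in LSC and 1907 TPM in GMP. The 7 monocyte and macrophage markers summed to 2255 TPM in mAML, 635 TPM in LSC and 648 TPM in GMP. The part of any of these cell types in the E2f2 level was not tested. In the same comparison of mAML with LSC, 25 of 29 mitotic genes were at least 2-fold lower and none higher. Of 61 E2F targets of DNA synthesis, 3 were lower and 1 higher. Among all genes 8.58% were lower and 16.3% higher to that extent.

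The lists around the family are described for mAML against LSC by counts alone, beside 16.3% of all genes higher and 8.58% lower, and differences between lists were not tested. Among the mitotic genes, Ube2c, which loads ubiquitin for the anaphase-promoting complex, had 63.9 CPM in mAML against 250 CPM in LSC (log2 -1.97 [-2.03, -1.91]), and Aurka, the spindle kinase, 50.9 CPM in mAML against 166 CPM in LSC (-1.71 [-1.78, -1.64]). Of the 10 pocket protein and MuvB genes 1 was at least 2-fold higher and 1 lower. Rb1, the retinoblastoma protein itself, had 61.7 CPM in mAML against 28.1 CPM in LSC (1.13 [1.04, 1.24]), and Mybl2 39.6 CPM in mAML against 104 CPM in LSC (-1.39 [-1.47, -1.31]). Of 17 G1 regulators 5 were higher and 2 lower, led by Cdkn1c, the inhibitor p57, with 1.72 CPM in mAML against 42.7 CPM in LSC (-4.53 [-4.98, -4.30]), and Ccnd1, cyclin D1, with 17.0 CPM in mAML against 2.17 CPM in LSC (2.90 [2.65, 3.31]). Of the 8 ubiquitin ligase genes 3 were lower and none higher, and of the 10 PRC1.6 genes none was 2-fold apart in either direction.

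Between LSC and GMP, Tfdp2 alone was at least 2-fold apart. It had 23.1 CPM in LSC and 57.9 CPM in GMP (log2 -1.32 [-1.44, -1.20]), beside 12.2% of all genes lower, 13.4% higher and 25.6% in either direction. E2f4 had 63.8 CPM in LSC and 107 CPM in GMP (-0.75 [-0.83, -0.67]), E2f3 28.0 CPM in LSC and 45.1 CPM in GMP (-0.68 [-0.81, -0.57]), and E2f6 34.8 CPM in LSC and 51.6 CPM in GMP (-0.57 [-0.68, -0.46]). E2f5 rested on few reads, with 49 counts in LSC and 61 in GMP (-0.84 [-1.48, -0.35]). E2f8 had the highest ratio of the 10 genes, with 208 CPM in LSC and 138 CPM in GMP (0.59 [0.53, 0.65]). Of the 10 ratios 3 were above 0 and 7 below. Around the family, 5 of 61 E2F targets of DNA synthesis were at least 2-fold lower in LSC and none higher, and 4 of 29 mitotic genes were higher and none lower. Of 16 G1 regulators 4 were higher and 2 lower. Cdkn1c had 42.7 CPM in LSC and 0.339 CPM in GMP (6.50 [6.05, 8.11]). Ccnd2, cyclin D2, had 3.19 CPM in LSC and 212 CPM in GMP (-6.00 [-6.32, -5.80]), and Orc1, of the origin recognition complex, 8.65 CPM in LSC and 24.5 CPM in GMP (-1.49 [-1.69, -1.31]).

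Between mAML and GMP, 1 gene was at least 2-fold higher and 2 lower, beside 22.1% and 15.1% of all genes and 37.3% in either direction. E2f2 was higher (log2 3.73 [3.61, 3.87]). E2f3, with 15.8 CPM in mAML and 45.1 CPM in GMP (-1.51 [-1.65, -1.38]), and Tfdp2, with 17.7 CPM in mAML and 57.9 CPM in GMP (-1.71 [-1.84, -1.59]), were lower. The count of 3 grew to 6 with library size alone and to 5 with TPM, as E2f4, E2f5 and Tfdp1 lie close to 2-fold. Of the E2F targets of DNA synthesis, 26 of 61 had a level in mAML that was lower by at least 2-fold, and none was higher to that extent. E2f1 differed little between the libraries, with 58.7 CPM in mAML, 54.2 CPM in LSC and 59.0 CPM in GMP. The activators made up 48.2% of the summed E2f TPM in mAML, 21.9% in LSC and 22.7% in GMP.

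**Figure D5:**
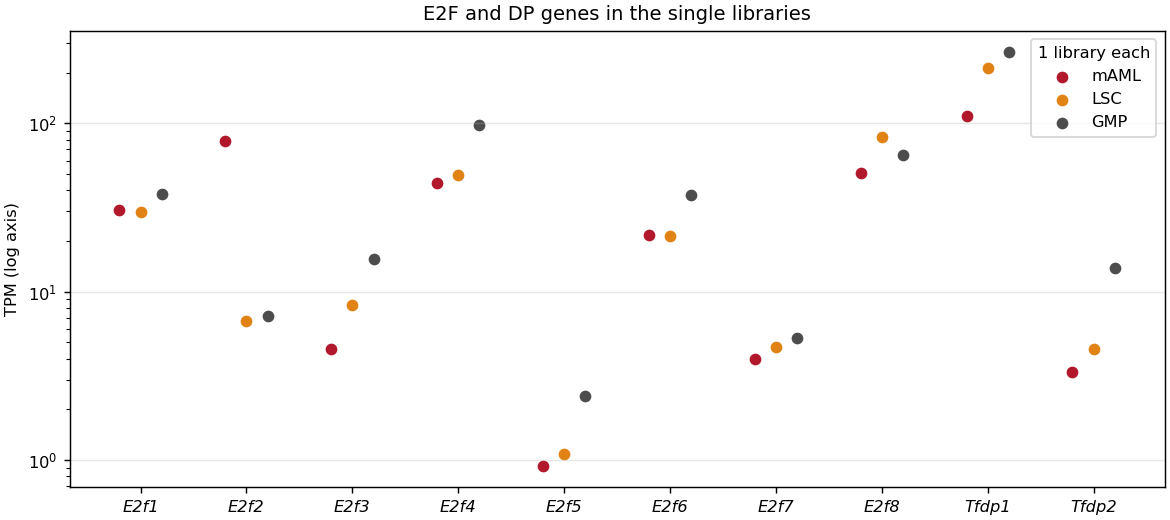
TPM of the 10 genes in the single libraries of mAML, LSC and GMP on a log axis, 1 point per library. E2f2 stands at 78.1 TPM in mAML, against 6.73 TPM in LSC and 7.19 TPM in GMP. Tfdp2 is at 3.34 TPM in mAML, 4.58 TPM in LSC and 13.8 TPM in GMP.

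The single LSC library and the untreated LSC of the time course were not alike in every member. In TPM, E2f5 stood at 6.24 and 4.92 in the 0 h libraries, against 1.09 in the single LSC library. Tfdp2 stood at 14.9 and 14.3 at 0 h, against 4.58, and E2f2 at 14.1 and 13.7, against 6.73. E2f1 was close, at 30 and 28.0 TPM at 0 h and 29.8 TPM in the single library. Marker sums differed too. Neutrophil markers summed to 21962 TPM in the single library, against 1340 to 6356 TPM at 0 h. Mast cell, basophil and eosinophil markers summed to 22.35 TPM, against 461 to 647 TPM at 0 h. Myeloid progenitor markers summed to 30152 TPM, against 9402 to 9825 TPM at 0 h. The T and NK sum of 156 TPM lay within the 0 h range of 102 to 198 TPM, but most of it was Nkg7. That gene had 153 TPM in the single library, against 182 and 92.2 TPM at 0 h. The only other markers of the list to reach 1 TPM in these libraries were Ccl5 and Lck. Ccl5 had 1.35 TPM, against 9.93 and 5.30 TPM at 0 h, and Lck 0.17 TPM, against 4.89 and 4.47 TPM. How these libraries differ in preparation is not given in the sources used here, so the fold changes of the time course and of the single libraries were kept apart.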

How the data were processed

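RNA was sequenced in 13 libraries. STAR, RSEM and the build mm9 are named, per the submitters' processing notes, with no version. Each deposited file lists an expected count per gene, not scaled for depth, and a TPM, in which the authors' RSEM run corrected for length and depth. Expected counts were rounded. The time course was fitted with edgeR 4.0.16 in R 4.3.3 (TMM scaling, filterByExpr, quasi-likelihood test, time as a factor, 10 libraries in 1 model, no replicate block), with calls at an adjusted p under 0.05 (Benjamini-Hochberg) over all 11119 genes tested. SE is approximate (the size of the log2 change over the root of its F value). Levels are TMM-scaled CPM. The common biological coefficient of variation was 0.186. The fit was tried on simulated counts with a shared spread, independent libraries and changes at 8 h alone. That trial does not cover libraries that vary together or changes in genes with few reads. For single libraries, log2 ratios of scaled CPM (prior count 5) are given with 95% exact binomial intervals, counting genes at least 2-fold apart of those reaching 1 CPM in either library. Other settings were limma 3.58.1 on log2(TPM + 1), DESeq2 1.42.0, library size alone, no filter, a length correction, a replicate block and leaving out each library. Genes named are all members, up to 3 called genes per list with the smallest adjusted p at 8 h and at 72 h, in single libraries up to 2 per list with the largest ratio and 10 CPM, and the 3 most alike genes per member (the first alone for 5 members). The members and lists were chosen with earlier results of these data known. Promoters are from RefSeq tables on GRCm38.p6, which is not the authors' build, so coordinates are given on GRCm38.p6 for the printed stretches alone.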

Additional observations from a re-analysis of the deposited data

How the results depend on the processing

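Of the 940 values recomputed for single genes under other settings, 815 were unchanged. In the time course, unchanged means the same sign and the same call, and in the single libraries a ratio within its counting interval. With the same sign, 37 lost and 23 gained a call. In the single libraries 38 moved outside the interval, without a test. In the time course 27 changed sign, and calls gained or lost among those 27 are not in the other counts. The calls of E2f2, E2f8 and Tfdp1 from 24 h on and of E2f5 at 72 h held under all other settings of the time course. The number of genes of the family called at 8 h was 7 with library size alone, 8 with limma on log2(TPM + 1) and 2 to 5 without 1 library, against 3. Without 1 library, 2716 to 4603 genes in all were called at 8 h against 4324, and 2061 to 3759 at 72 h against 8 h, the lowest without the second 72 h library, against 3583. Between mAML and GMP, 6 genes of the family were at least 2-fold apart with library size alone and 5 with TPM, against 3. With library size alone, E2f3, E2f4, E2f6 and Tfdp2 stood at 0.028, 0.072, 0.049 and 0.11 at 24 h and at 0.28, 0.24, 0.093 and 0.060 at 72 h, and E2f3, E2f4 and E2f6 at 0.14, 0.11 and 0.22 at 48 h. With limma on log2(TPM + 1) the same 4 genes stood at 0.32, 0.28, 0.24 and 0.29 at 24 h, at 0.52, 0.43, 0.53 and 0.19 at 48 h and at 0.71, 0.57, 0.42 and 0.37 at 72 h, and E2f3 at 0.19 at 72 h against 8 h. E2f4 stood at -0.050 at 8 h without the second 8 h library and at 0.0054 at 72 h with the length correction, and E2f3 ran from -0.12 to 0.015 at 72 h without 1 library, above 0 without the first 0 h library. Library size alone shifted the median of all genes by 0.31, 0.31, 0.35 and 0.37 at the 4 treated times and limma on TPM by 0.43, 0.50, 0.66 and 0.69, and the share of calls that were higher was 46.0%, 46.2%, 45.2% and 46.8% with TMM, 72.8%, 67.5%, 65.4% and 67.4% with library size alone and 78.2%, 76.1%, 76.9% and 78.8% with TPM. For 72 h against 8 h it was 46.7%, 52.6% and 72.2%. The cause was not tested. To look for pairing by number, the difference in log2 CPM between replicate 1 and replicate 2 was taken for each gene at each time. These differences were correlated over genes between each 2 times. The correlations ran from -0.408 to 0.644 with 3 of 10 above 0.1. The value was 0.644 between 8 h and 24 h, -0.402 between 8 h and 72 h and -0.408 between 24 h and 72 h. The others lay between 0.0243 and 0.151. Whether libraries were paired at some of the times, under the same or other numbers, was not tested. With the replicate block the family had 3, 6, 6 and 6 calls at the 4 times, and 4197 genes in all were called at 8 h. Depth limits E2f2, E2f7 and E2f8 at 48 and 72 h, where few reads remained.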
